A study of Homo sapiens with 30 samples.

Results

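Lysosomes are acidic organelles in which hydrolases break down proteins, glycans and lipids, and autophagy is the route by which a cell delivers its own cytoplasm to them. The transcription factors TFEB, TFE3 and MITF bind a short palindromic element in the promoters of many lysosomal genes, known as the CLEAR element. The kinase mTORC1, which acts downstream of PI3K and AKT, phosphorylates TFEB and holds it in the cytoplasm, and it also phosphorylates the autophagy kinase ULK1. In B cells, lysosomal cathepsins also trim the invariant chain and antigens for presentation on MHC class II. The genes described here are 33 of the 21112 genes in the files, chosen by symbol as a list of TFEB-type factors, lysosomal membrane proteins and enzymes, the proton pump and the autophagy machinery. All 33 symbols were found. They comprise 3 factors, 4 membrane proteins, 7 proteases, 7 other hydrolases and activators, 2 lipid transporters, 3 proton pump subunits, 3 autophagy adaptors and LC3 proteins, and 4 autophagy initiation genes.

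The study profiled RNA of diffuse large B-cell lymphoma (DLBCL) cell lines under AZD8186, an inhibitor of the PI3K isoforms β and δ, at 0.5 µM. The activated B-cell-like (ABC) lines were OCI-Ly10 and TMD8 and the germinal center B-cell-like (GCB) lines were HT and K422, all of them described as sensitive to the compound. At 6, 12, 18 and 24 h each line gave 1 library per treatment, except that no TMD8 library at 12 h was analysed here. The 30 libraries therefore form 15 pairs of the same line and time point, 7 in ABC and 8 in GCB. The sample labels name DMSO as the control, whereas the description of the series calls the controls untreated. Each subtype is represented by 2 established lines, and no source states that the time points of a line came from separate cultures. The p-values given here thus reflect the scatter among these libraries, which may be technical.

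The expected counts, which are the estimated reads per gene, summed to between 15820230 and 23579029 per library. Ribosomal RNA took 0.690% to 4.35% of them, with the highest share in the AZD8186 library of TMD8 at 6 h. The share of ribosomal protein genes had a median of 23.9% in the AZD8186 libraries of ABC against 19.1% in the DMSO libraries, and in GCB of 16.9% against 14.6%. B-cell markers summed to between 1192 and 3213 TPM, a level scaled to gene length and library total. Markers of myeloid cells, which are rich in lysosomes, summed to at most 1.28 TPM in any library. K422 also held CD3D (median 76.8 TPM) and CD3G (98.9 TPM) and the stromal proteoglycan DCN (140.8 TPM), while CD2, COL1A1, COL1A2 and COL3A1 were listed at 0 in all its libraries. The stromal markers of K422, nearly all DCN, summed to 127, 107, 102 and 98.1 TPM under DMSO at 6, 12, 18 and 24 h. Under AZD8186 they summed to 166, 154, 171 and 187 TPM, which did not overlap. The T-cell markers of K422 summed to 162 to 184 TPM and 167 to 182 TPM, which overlapped. The part of these transcripts in the K422 results below was not tested.

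Under DMSO the 33 genes were unequally abundant. Since TPM corrects for gene length, levels of different genes can be compared on it. PSAP, the precursor of the saposins that help enzymes reach sphingolipids, had 342 ± 12.6 TPM in HT against 66.5 ± 5.23 TPM in OCI-Ly10 (mean ± SD, n = 4 each). CTSZ, a carboxypeptidase, reached 354 ± 38.1 TPM in K422 (n = 4) and had 123 ± 6.97 TPM in HT (n = 4). The aminopeptidase CTSH ran from 281 ± 45.9 TPM in HT to 23.7 ± 1.40 TPM in K422, with no overlap between neighbouring lines in the order HT, OCI-Ly10, TMD8 and K422. The same order held for GAA, the acid glucosidase that degrades glycogen, at 14.5 ± 1.54, 7.77 ± 0.785, 1.27 ± 0.284 (n = 3) and 0.568 ± 0.276 TPM, again without overlap between neighbours. Its mean was 25.6 times higher in HT than in K422.

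TFEB was most abundant in K422, at 76.03 ± 6.84 TPM, and had 37.1 ± 3.71 TPM in HT. In OCI-Ly10 it had 23.1 ± 1.38 TPM and in TMD8 28.4 ± 5.11 TPM. TFE3 ranged from 10.7 ± 1.29 TPM in TMD8 to 16.5 ± 1.74 TPM in OCI-Ly10. MITF was nearly absent, with at most 3 counts in any library of HT and 0 counts in the libraries of the other lines. GABARAPL1, an LC3-type protein of autophagosomes, was at 2.56 ± 0.693 TPM in OCI-Ly10, and its mean stayed at or under 0.06 TPM in the GCB lines. LAMP1, the main glycoprotein of the lysosomal membrane, lay within a narrower band of 88.5 ± 4.03 to 132 ± 14.8 TPM. The initiation genes ULK1 and ATG14 were low in every line, between 1.31 ± 0.142 TPM for ATG14 in TMD8 and 3.95 ± 0.915 TPM for ULK1 in OCI-Ly10. Across the 15 DMSO libraries, 31 of the 32 members tested differed among the lines at an adjusted p under 0.05, where 97.3% of all genes did. The exception was ATP6V0D1 (adjusted p = 0.371).

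**Figure D1:**
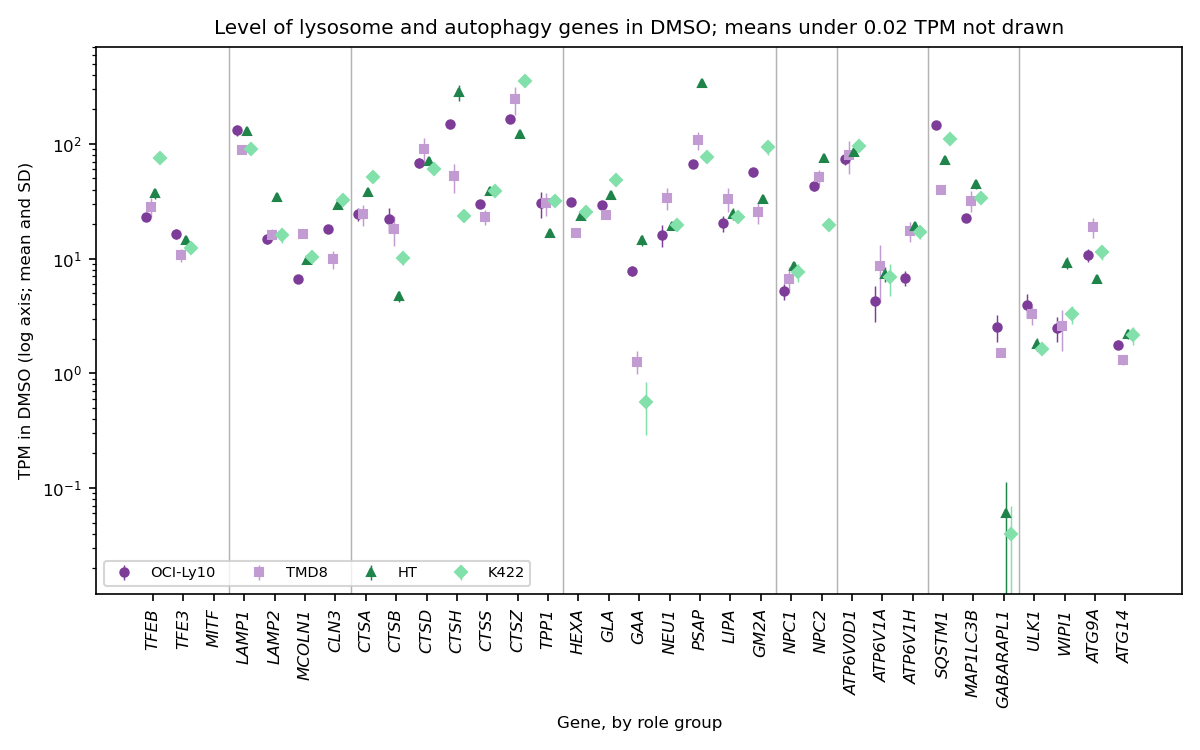
Level of each gene under DMSO in TPM on a log axis, as mean and SD over the 4 DMSO libraries of a line (3 in TMD8). The highest and lowest line means differ most for GABARAPL1, followed by GAA and CTSH, and lie close together for ATP6V0D1; lines with a mean under 0.02 TPM, which is every line for MITF, have no point.

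The CLEAR element was looked for in the promoters, because it is where TFEB and TFE3 bind. RefSeq promoter windows of 300 bases (250 before and 50 from the transcription start on, GRCh38.p14) matched 26 of the 33 members by symbol. The core TCACGTGA, which reads the same on both strands, was present in 6 of these 26 windows (23.1%) and in 1.04% of all 27305 windows. The shorter E-box CACGTG, which lies inside that core, was in 9 of the 26 (34.6%) and in 7.43% of all. The forkhead motif GTAAACA, searched on both strands, was in 0 of the 26 and in 3.41% of all, which says only that these letters are not in these windows. Among 48 other lysosomal genes with a window, 7 (14.6%) held the core. The members with the core were ATP6V0D1, CLN3, CTSA, GAA, LAMP1 and MCOLN1, the last 3 with 2 copies each. The 120 bases around their starts (100 before and 20 from the start on, on the strand of the gene) are printed below, with the core in capitals, to show how close to the start it lies.
ATP6V0D1, chr16:67481138-67481257, minus strand: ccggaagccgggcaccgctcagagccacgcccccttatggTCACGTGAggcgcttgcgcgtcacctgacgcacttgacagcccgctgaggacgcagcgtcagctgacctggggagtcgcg
CLN3, chr16:28492055-28492174, minus strand: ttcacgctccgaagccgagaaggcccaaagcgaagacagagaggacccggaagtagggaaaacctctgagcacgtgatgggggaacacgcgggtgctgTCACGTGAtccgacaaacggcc
CTSA, chr20:45891235-45891354, plus strand: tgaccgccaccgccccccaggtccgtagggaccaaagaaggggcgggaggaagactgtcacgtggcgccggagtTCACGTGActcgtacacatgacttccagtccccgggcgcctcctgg
GAA, chr17:80101481-80101600, plus strand: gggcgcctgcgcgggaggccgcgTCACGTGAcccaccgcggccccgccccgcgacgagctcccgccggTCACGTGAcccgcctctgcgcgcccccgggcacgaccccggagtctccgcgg
LAMP1, chr13:113297139-113297258, plus strand: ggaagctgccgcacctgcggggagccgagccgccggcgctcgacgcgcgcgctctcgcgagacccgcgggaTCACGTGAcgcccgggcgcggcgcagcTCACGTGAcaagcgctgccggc
MCOLN1, chr19:7522524-7522643, plus strand: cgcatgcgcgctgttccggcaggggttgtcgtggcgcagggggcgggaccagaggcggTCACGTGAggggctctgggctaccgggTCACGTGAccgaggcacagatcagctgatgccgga

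The core began between 77 bases before the start (the first copy of GAA) and 2 bases before it (CLN3 and the second copy of LAMP1). Under AZD8186 these 6 genes did not all move alike. GAA was called higher in both subtypes and MCOLN1 in GCB, whereas LAMP1, CLN3, CTSA and ATP6V0D1 were not called in either subtype. Of all genes, 29.1% were called in ABC and 49.4% in GCB. In the fit of HT alone, LAMP1 was called lower. A match is a description of letters and not a measured binding site.

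Under AZD8186 more of the 33 genes were called higher than lower, and more were called in GCB than in ABC. In ABC 32 of the 33 passed the filter on low counts, of which 8 were higher and 2 lower at an adjusted p under 0.05. Among all 11419 genes tested in ABC, 29.1% were called (15.3% higher and 13.8% lower). The median log2 fold change was 0.09 over the members tested and 0.01 over all genes. In GCB 14 of the 31 members tested were higher and 6 lower, against a background of 49.4% (25.9% higher and 23.5% lower of 10965 genes). There the median was 0.15 over the members tested and 0.02 over all genes. The share of members called was thus near the background in ABC, and in GCB it was above it. The members were chosen with earlier results of these data known, so these shares are a description and not a test. A library holds RNA of a whole culture, so fewer cells with a transcript and less of it per cell cannot be told apart. The counts in ABC depended on the scaling. On log2(TPM + 1), where the median of all genes lay at -0.17, 4 members were higher and 11 lower in ABC. Of all 9905 genes on that scale, 540 were higher and 4161 lower. With TPM rescaled without ribosomal protein genes, whose share was higher under AZD8186, as given above, 6 members were higher and 3 lower in ABC. Of all 10684 genes on that rescaled level, 1263 were higher and 1915 lower.

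Counted by pairs, 10 members lay above 0 in all 7 ABC pairs and 3 below 0, where 10.8% and 11.5% of all genes did. In GCB 6 lay above 0 in all 8 pairs and 4 below, against 14.9% and 15.2% of all genes. The median log2 ratio over the members ran from -0.0013 in OCI-Ly10 at 6 h to 0.31 in K422 at 24 h. In the 4 K422 pairs it was at least 0.17, and in the 4 HT pairs at most 0.07.

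**Figure D2:**
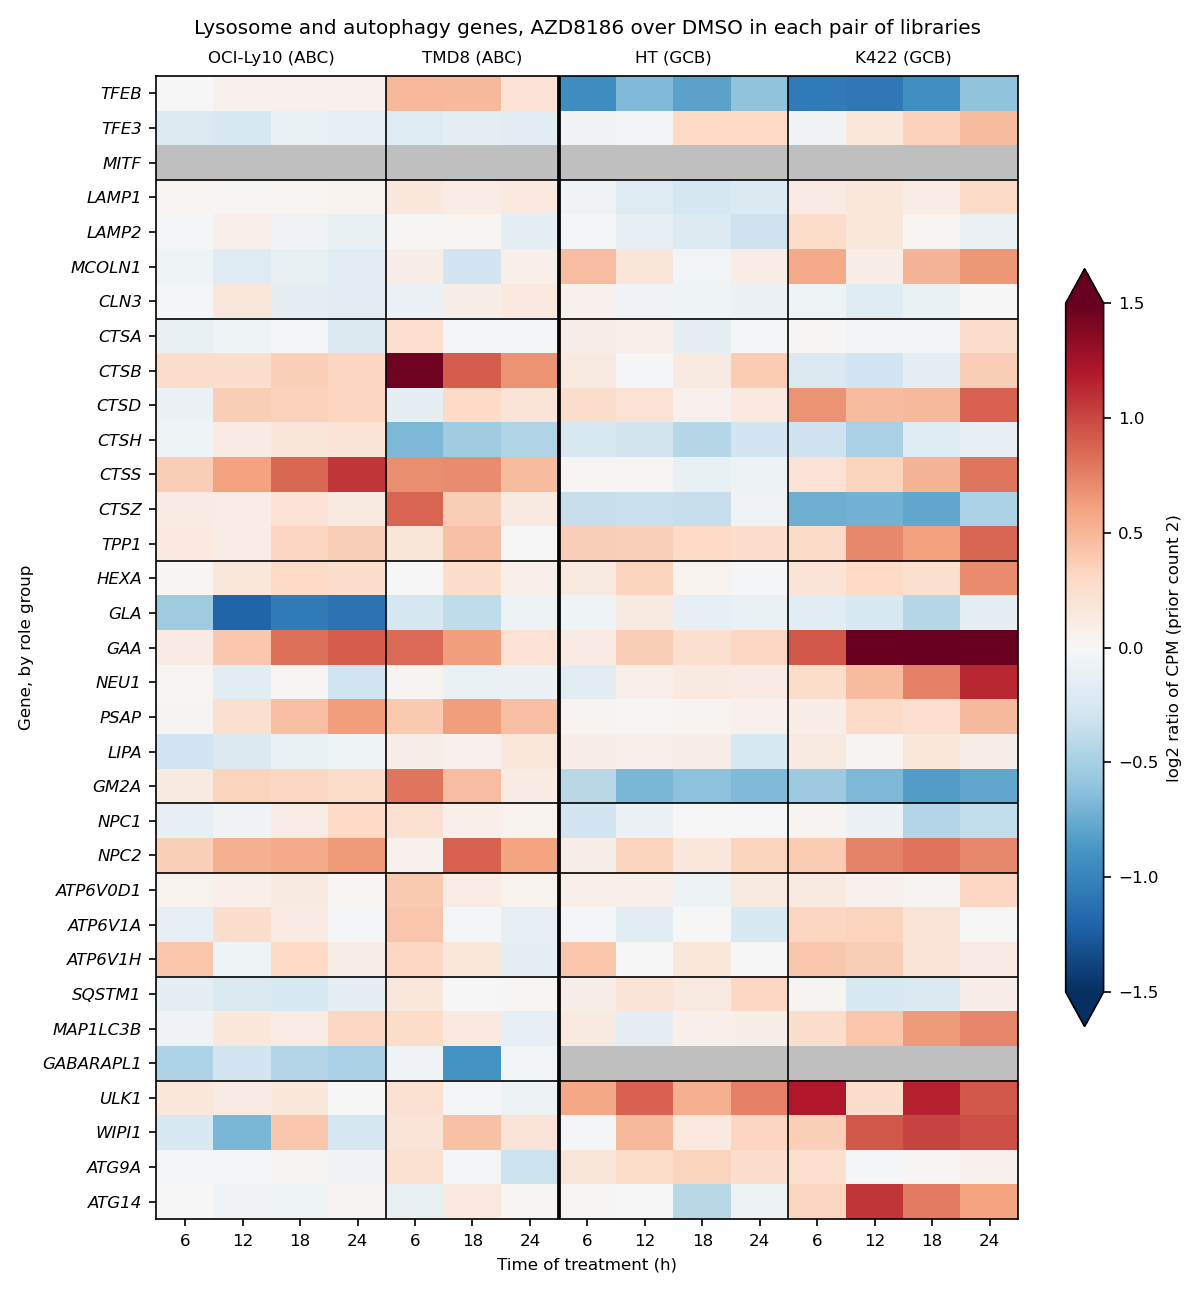
Log2 ratio of AZD8186 over DMSO in CPM for each gene and each of the 15 pairs, with red higher and blue lower under AZD8186. Gray marks a gene below the filter in that subtype. CPM are counts scaled to the library total and its TMM factor, here with a prior count of 2. TFEB, CTSZ and GM2A are blue in every GCB pair, GAA, CTSS and NPC2 are red in every ABC pair, and GAA in K422 is beyond the end of the scale at 12, 18 and 24 h.

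Of the factors, TFEB fell in both GCB lines and TFE3 changed by less. TFEB (GRCh38, chr6:41683978-41736259, minus strand) had 56.4, 52.8, 67.1 and 54.2 CPM under DMSO in HT at 6, 12, 18 and 24 h and 29.4, 33.4, 38.4 and 35.6 CPM under AZD8186. In K422 it had 119, 104, 114 and 96.6 CPM under DMSO and 57.02, 49.5, 60.3 and 63.7 CPM under AZD8186. Every AZD8186 library of these lines thus lay below every DMSO library of the same line. The log2 fold change in GCB was -0.84 ± 0.06 (SE, adjusted p = 2.48e-07, lower in 8 of 8 pairs), and the exact sign permutation over the 8 pairs gave p = 0.00781, the smallest it can give. In ABC the values of OCI-Ly10 were 51.1, 40.7, 40.2 and 41.7 CPM under DMSO and 51.1, 42.7, 42.1 and 43.5 CPM under AZD8186, which overlapped. TMD8 had 50.5, 54.9 and 54.2 CPM at 6, 18 and 24 h under DMSO and 71.6, 77.2 and 63.1 CPM under AZD8186, which did not overlap. The ABC log2 fold change of 0.21 ± 0.08 missed the threshold (adjusted p = 0.066), and passed it with the pair as a block (adjusted p = 0.0447).

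TFE3, a close relative of TFEB, ranged over 47.4 to 50.8 CPM under DMSO and 42.2 to 46.8 CPM under AZD8186 in OCI-Ly10. In TMD8 the ranges were 30.7 to 33.5 CPM and 27.2 to 30.6 CPM, and the groups did not overlap in either line. It fell by 0.16 on the log2 scale in ABC (SE 0.06, adjusted p = 0.0425, lower in 7 of 7 pairs). In GCB it was 0.17 ± 0.06 (adjusted p = 0.0269), with 5 of 8 pairs higher, at 35.3 to 36.9 CPM under DMSO and 35.5 to 44.4 CPM under AZD8186 in HT and 26.9 to 28.3 CPM under DMSO against 27.3 to 39.3 CPM under AZD8186 in K422, which overlapped. Both calls were fragile. That in ABC was lost without any single pair other than TMD8 6 h (adjusted p 0.065 to 0.109), and that in GCB without HT 18 or 24 h or K422 12, 18 or 24 h (0.0589 to 0.102). MITF was below the filter in both subtypes.

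In the fits of the 2 subtypes, the 4 membrane proteins gave 0 calls in ABC and 1 in GCB. The shares of all genes called were 29.1% and 49.4%. MCOLN1, the calcium channel of the lysosomal membrane, had 11.3 to 15.997 CPM under DMSO and 16.9 to 23.7 CPM under AZD8186 in K422, without overlap, and 13.7 to 14.6 CPM under DMSO against 14.01 to 20.1 CPM under AZD8186 in HT, with overlap. It rose in GCB by 0.31 ± 0.08 on the log2 scale (adjusted p = 0.00479, higher in 7 of 8 pairs), while its ABC value was -0.08 ± 0.07 (adjusted p = 0.407). LAMP1 had the smallest p of the group in ABC, with 0.08 ± 0.06 (adjusted p = 0.284). The LAMP1 response differed between HT and K422, as given with those lines. In the fit of HT alone, LAMP1 and LAMP2 (-0.18 ± 0.06, adjusted p = 0.0212) were called lower, LAMP2 not without HT 18 or 24 h (0.0927 to 0.127). LAMP2, the receptor of chaperone-mediated autophagy, and CLN3, the protein lost in juvenile Batten disease, were not called in either subtype, with log2 fold changes between -0.07 and 0.01.

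The 7 proteases gave 4 calls in each subtype, all higher in ABC, and in GCB 2 higher and 2 lower. Of all genes, 15.3% were higher in ABC, and 25.9% were higher and 23.5% lower in GCB. CTSS, the cysteine protease that completes invariant chain removal in B cells, was at 109, 110.1, 110.5 and 99.2 CPM under DMSO and 140.3, 167, 201 and 208 CPM under AZD8186 in OCI-Ly10. In TMD8 it was at 83.1, 86.7 and 82.3 CPM under DMSO against 135, 142 and 114 CPM under AZD8186. All AZD8186 libraries of both lines lay above the DMSO libraries of their line. The ABC log2 fold change was 0.70 ± 0.08 (adjusted p = 7.05e-05, higher in 7 of 7 pairs, exact sign permutation p = 0.0156, the smallest for 7 pairs). In GCB CTSS was 0.21 ± 0.09 (adjusted p = 0.0598), with HT at 109.6 to 119 CPM under DMSO against 108 to 120.3 CPM under AZD8186 and K422 at 102 to 112 CPM under DMSO against 122 to 178 CPM under AZD8186. The groups overlapped in HT and not in K422.

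CTSB, a cysteine protease with broad specificity, rose in ABC by 0.59 ± 0.17 (adjusted p = 0.0176, higher in 7 of 7 pairs). Its TMD8 libraries had 47.5, 75.3 and 58.8 CPM under DMSO and 131, 141 and 93.7 CPM under AZD8186, and its OCI-Ly10 libraries 114, 68.1, 59.7 and 60.3 CPM under DMSO against 136, 81.5, 76.8 and 75.3 CPM under AZD8186. The OCI-Ly10 groups overlapped, although each AZD8186 library was above its own DMSO library. Without the TMD8 6 h pair the ABC value was 0.47 (adjusted p = 0.00297). In GCB CTSB was 0.03 ± 0.08 (adjusted p = 0.789), higher in 4 of 8 pairs.

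CTSZ moved in opposite directions in the subtypes. In K422 it was at 274, 349, 323 and 307 CPM under DMSO and 165, 214, 189 and 220.1 CPM under AZD8186, and in HT at 113, 126, 122 and 115 CPM under DMSO against 88.9, 100.1, 95.9 and 112 CPM under AZD8186, without overlap in either line. It fell in GCB by 0.48 on the log2 scale (SE 0.07, adjusted p = 6.7e-05, lower in 8 of 8 pairs). In TMD8 it was at 229, 324 and 298 CPM under DMSO against 420.2, 418 and 326 CPM under AZD8186 and in OCI-Ly10 at 221, 199, 179 and 172 CPM under DMSO against 242, 216, 207 and 188 CPM under AZD8186, with overlap in OCI-Ly10. The ABC value of 0.27 ± 0.09 was called (adjusted p = 0.0399, higher in 7 of 7 pairs). It was 0.18 without the TMD8 6 h pair, where the call held (adjusted p = 0.0184). The call was lost without OCI-Ly10 12, 18 or 24 h or TMD8 18 h (adjusted p 0.0528 to 0.0827).

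TPP1, a tripeptidyl peptidase, was higher in both subtypes. In HT it had 41.3, 45.8, 42.7 and 40.4 CPM under DMSO and 53.4, 58.9, 52.8 and 48.4 CPM under AZD8186, and in K422 73.8, 81.3, 79.4 and 65.04 CPM under DMSO against 89.9, 134, 122 and 119 CPM under AZD8186, without overlap in either line. The GCB log2 fold change was 0.47 ± 0.07 (adjusted p = 5.85e-05, higher in 8 of 8 pairs). In ABC it was 0.23 ± 0.08 (adjusted p = 0.0432, higher in 7 of 7 pairs), with ranges of 65.8 to 108 CPM under DMSO against 72.95 to 136 CPM under AZD8186 in OCI-Ly10 and 84.3 to 100.3 CPM under DMSO against 95.6 to 132 CPM under AZD8186 in TMD8, which overlapped. That call was lost without OCI-Ly10 12, 18 or 24 h or TMD8 18 h (adjusted p 0.0594 to 0.116). CTSD, the aspartyl protease, rose in GCB by 0.39 ± 0.08 (adjusted p = 0.000929), and CTSH fell there by 0.30 on the log2 scale (SE 0.07, adjusted p = 0.00152). Neither was called in ABC, where their values were 0.19 and -0.16. CTSA, a carboxypeptidase that also protects NEU1, was at -0.03 in ABC and 0.02 in GCB and was not called.

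Among the other hydrolases and activators, GLA fell and GAA and PSAP rose in both subtypes, and GM2A moved in opposite directions. GLA, the galactosidase deficient in Fabry disease, was at 32.9, 30.1, 31.3 and 32.4 CPM under DMSO and 22.7, 13.04, 15.1 and 15.1 CPM under AZD8186 in OCI-Ly10. In TMD8 it was at 29.8, 26.3 and 23.96 CPM under DMSO against 24.8, 20.1 and 22.8 CPM under AZD8186. The groups lay apart in OCI-Ly10 and overlapped in TMD8. The ABC log2 fold change was -0.65 ± 0.12 (adjusted p = 0.00194, lower in 7 of 7 pairs). In GCB it was -0.15 ± 0.06 (adjusted p = 0.0494, lower in 7 of 8 pairs), a call that was lost without any single pair other than HT 12 h (adjusted p 0.0553 to 0.18) and with the pair as a block (0.0562).

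GAA (GRCh38, chr17:80101556-80119879, plus strand) was at 1.55, 0.703, 0.820 and 0.947 CPM under DMSO and 3.04, 3.15, 2.92 and 3.66 CPM under AZD8186 in K422, where it was scarce. In HT it was at 44.2, 36.1, 34.6 and 33.4 CPM under DMSO against 48.3, 46.7, 40.8 and 41.3 CPM under AZD8186. The groups did not overlap in K422 and did in HT, with each HT pair higher under AZD8186. Its log2 fold change was 0.60 ± 0.17 in GCB (adjusted p = 0.00969, higher in 8 of 8 pairs) and 0.58 ± 0.11 in ABC (adjusted p = 0.00142, higher in 7 of 7 pairs). OCI-Ly10 had 23.4, 26.1, 24.7 and 21.96 CPM under DMSO and 25.4, 34.7, 43.9 and 41.4 CPM under AZD8186, and TMD8 2.55, 3.52 and 3.42 CPM under DMSO against 4.69, 5.51 and 4.004 CPM under AZD8186. The gap between the OCI-Ly10 arms was widest at 18 and 24 h.

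PSAP was at 166, 161, 169 and 160.1 CPM under DMSO and 170.4, 189.9, 230.2 and 248 CPM under AZD8186 in OCI-Ly10 and at 254, 281 and 270.3 CPM under DMSO against 335, 433 and 370.1 CPM under AZD8186 in TMD8, without overlap. It rose in ABC by 0.41 ± 0.07 (adjusted p = 0.00079, higher in 7 of 7 pairs). Its GCB value was 0.15 ± 0.06 (adjusted p = 0.0384, higher in 8 of 8 pairs), and that call was lost without K422 12, 18 or 24 h (adjusted p 0.0863 to 0.141). The HT ranges of 680.4 to 728 CPM under DMSO against 689 to 749 CPM under AZD8186 overlapped.

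GM2A (GRCh38, chr5:151212150-151270440, plus strand), the activator that presents ganglioside GM2 to hexosaminidase, was at 84.8, 89.5, 88.8 and 90.5 CPM under DMSO and 63.6, 55.8, 58.1 and 57.2 CPM under AZD8186 in HT. In K422 it was at 205, 219.7, 253 and 241 CPM under DMSO against 141, 137, 141 and 139.9 CPM under AZD8186. Both lines were lower at each time point, and neither overlapped. In ABC it was higher at each time point, with 180.0, 180.2, 188 and 179 CPM under DMSO against 197, 227, 232 and 216 CPM under AZD8186 in OCI-Ly10 and 78.6, 80.2 and 87.8 CPM under DMSO against 137, 111 and 95.6 CPM under AZD8186 in TMD8, also without overlap. The log2 fold change was -0.66 ± 0.05 in GCB (adjusted p = 3.24e-07) and 0.36 ± 0.08 in ABC (adjusted p = 0.00453). On log2(TPM + 1) the ABC value was 0.15 and was not called (adjusted p = 0.188). Of the other members higher in ABC, CTSB (0.39, adjusted p = 0.0699), CTSZ (0.08, 0.546) and TPP1 (0.03, 0.796) were not called on that scale either, by limma. Of the GCB calls, those of TFE3 (0.11, adjusted p = 0.127), PSAP (0.09, 0.105), ATP6V1H and ATG9A (0.09, 0.207) were lost on it.

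HEXA, the alpha subunit of that hexosaminidase, did not follow GM2A. It rose in GCB by 0.24 ± 0.06 (adjusted p = 0.00558) and had 0.16 ± 0.06 in ABC (adjusted p = 0.0652, and 0.0434 with the pair as a block). NEU1, a sialidase, rose in GCB by 0.35 ± 0.11 (adjusted p = 0.0188), a call lost without K422 18 or 24 h (adjusted p 0.0594 to 0.0667). It was not called in ABC (-0.07). LIPA, the acid lipase, was not called in ABC (-0.04) or in GCB (0.05).

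The cholesterol transporters NPC1 and NPC2 hand cholesterol from the lumen to the lysosomal membrane, NPC2 as the soluble carrier and NPC1 in the membrane. NPC2 rose in both subtypes. It was at 26.5, 24.3, 26.5 and 26.9 CPM under DMSO and 33.8, 35.1, 39.5 and 41.95 CPM under AZD8186 in OCI-Ly10 and at 9.23, 10.2, 7.92 and 8.67 CPM under DMSO against 12.1, 17.2, 13.97 and 14.4 CPM under AZD8186 in K422, without overlap in either line. In TMD8 it was at 41.2, 27.6 and 26.7 CPM under DMSO against 43.1, 50.9 and 40.3 CPM under AZD8186 and in HT at 42.7, 36.7, 36.3 and 34.5 CPM under DMSO against 45.2, 46.2, 40.6 and 43.6 CPM under AZD8186, where the groups overlapped. Its log2 fold change was 0.52 ± 0.10 in ABC (adjusted p = 0.0015) and 0.42 ± 0.09 in GCB (adjusted p = 0.00112), and it was higher in all 15 pairs. NPC1 had 0.10 ± 0.08 in ABC (adjusted p = 0.405). In GCB NPC1 fell by 0.16 on the log2 scale (SE 0.06, adjusted p = 0.0389), a call lost with the pair as a block (0.0632) and without HT 6 h or K422 12, 18 or 24 h (0.0505 to 0.133).

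In the fits of the 2 subtypes, the 3 proton pump genes gave 0 calls in ABC and 1 in GCB. The shares of all genes called were 29.1% and 49.4%. ATP6V1H, a regulatory subunit of the cytosolic sector, rose in GCB by 0.20 ± 0.06 (adjusted p = 0.012, higher in 7 of 8 pairs), a call lost on log2(TPM + 1) with limma (0.13, adjusted p = 0.0993). It was at 20.8 to 24.9 CPM under DMSO and 26.2 to 30.7 CPM under AZD8186 in K422. It had 0.15 ± 0.08 in ABC (adjusted p = 0.152). ATP6V0D1, of the membrane sector, was above 0 in 7 of 7 ABC pairs but was not called (0.12 ± 0.07, adjusted p = 0.214). ATP6V1A, the catalytic subunit, was at 0.07 in ABC and 0.04 in GCB and was not called.

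In the autophagy machinery no member was called in ABC, where 7 were tested, and 4 of 6 were called higher in GCB. Of all genes, 29.1% were called in ABC and 25.9% were called higher in GCB. ULK1 (GRCh38, chr12:131894651-131923167, plus strand), the kinase that starts autophagosome formation, was at 7.06, 6.22, 8.36 and 6.29 CPM under DMSO and 10.6, 11.6, 12.1 and 10.7 CPM under AZD8186 in HT and at 5.68, 6.48, 4.92 and 5.83 CPM under DMSO against 13.2, 7.83, 11.1 and 11.2 CPM under AZD8186 in K422. The groups did not overlap in either line. It rose in GCB by 0.79 ± 0.11 (adjusted p = 3.23e-05, higher in 8 of 8 pairs). In OCI-Ly10 it was at 14.9, 17.9, 18.5 and 21.5 CPM under DMSO against 16.7, 19.6, 20.6 and 21.6 CPM under AZD8186 and in TMD8 at 14.9, 14.8 and 15.96 CPM under DMSO against 17.5, 14.5 and 15.1 CPM under AZD8186, with overlap in both, and the ABC value was 0.09 ± 0.09 (adjusted p = 0.466).

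WIPI1, which binds phosphoinositides on the forming autophagosome, rose in GCB by 0.49 ± 0.12 (adjusted p = 0.00275). Of its exonic bases in GENCODE 29, 28.5% overlap ARSG on the other strand, and the sources do not say whether strand was used in counting. The same holds for 39.8% of the exonic bases of SQSTM1, which overlap MRNIP. On the same strand, 54.9% of the exonic bases of CTSD and 43.5% of those of ATG9A are shared with another annotated gene. For CLN3, TPP1, HEXA and MCOLN1 an overlap on the same strand covers 25.5%, 14.2%, 10.2% and 8.12%. Smaller overlaps occur in some other members. The values of all these genes may thus hold reads of both genes or miss some of their own. Whether the annotation used for counting held the overlapping genes was not checked. ATG9A, the lipid scramblase of autophagosome precursors, had 0.16 ± 0.05 in GCB (adjusted p = 0.0239), a call lost without HT 12, 18 or 24 h or K422 6 h (adjusted p 0.0556 to 0.0666). ATG14, a subunit of the class III PI3K complex, had 0.29 ± 0.13 (adjusted p = 0.0813). MAP1LC3B, the LC3 protein that coats autophagosomes, rose in GCB by 0.27 ± 0.08 (adjusted p = 0.0126), a call lost without K422 24 h (adjusted p = 0.0513). Reads of MAP1LC3B and GABARAPL1 can be split with near-identical copies elsewhere in the genome, so their values are uncertain. SQSTM1, the cargo receptor p62, was at -0.07 in ABC and 0.04 in GCB and was not called in either subtype. In OCI-Ly10 every AZD8186 library of SQSTM1 lay below every DMSO library in CPM. In the fit of HT alone it was called higher, a call lost without HT 12 or 24 h (adjusted p 0.0762 to 0.102). On log2(TPM + 1) with limma, where the median of all genes was -0.17, it was called lower in ABC (-0.27, adjusted p = 0.00953). GABARAPL1 had the smallest p of the adaptors and LC3 proteins in ABC, with -0.38 ± 0.16 (adjusted p = 0.0898, lower in 7 of 7 pairs) at levels of 1.27 to 4.80 CPM, and was below the filter in GCB.

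**Figure D3:**
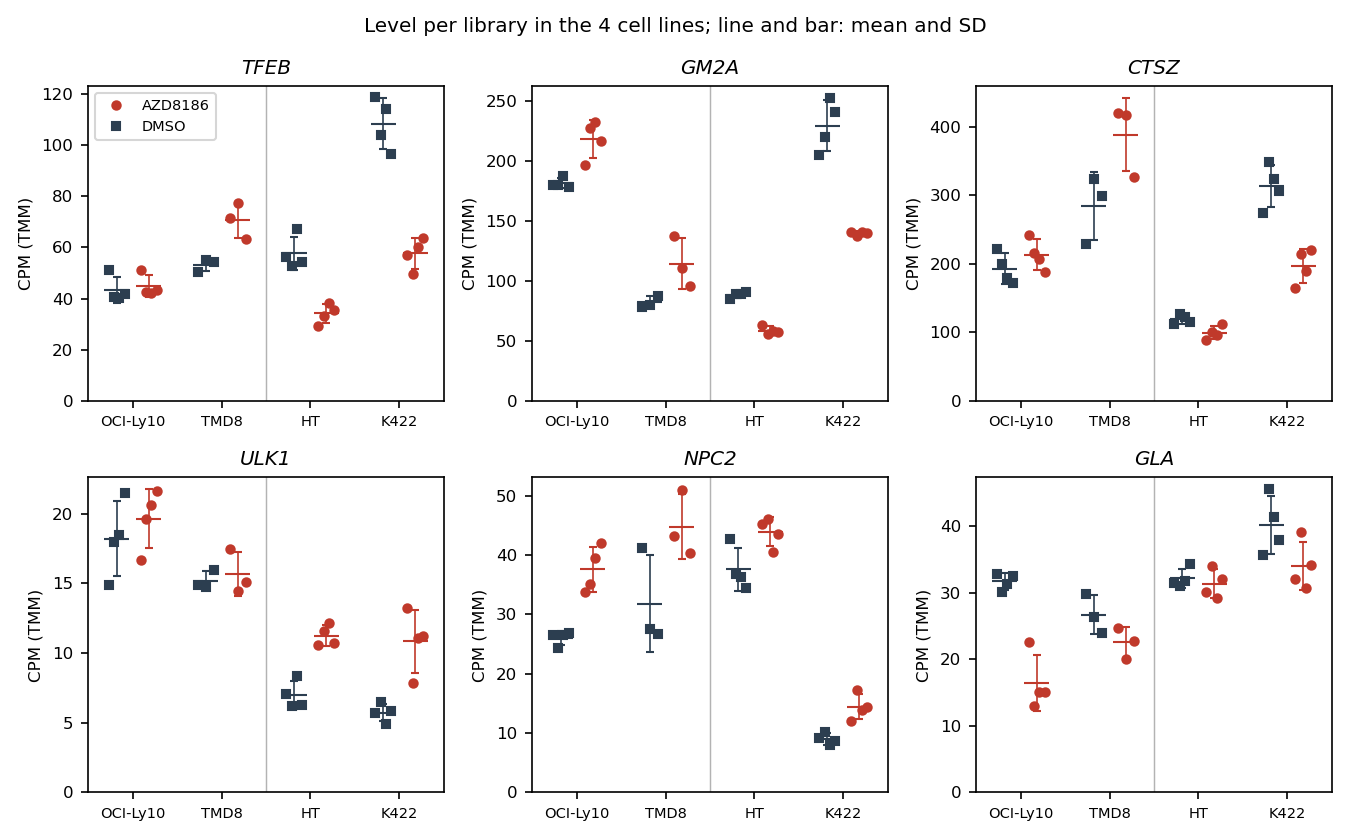
CPM of 6 genes in each library, with DMSO as dark squares and AZD8186 as red circles, each group in the order of time from left to right, and the mean with its SD as a line and bar. TFEB, GM2A and CTSZ are lower under AZD8186 in HT and K422, ULK1 is higher there, NPC2 is higher in each line on average, and GLA lies lowest under AZD8186 in OCI-Ly10.

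The difference between the subtypes was tested directly with the pair as a block. For 9 of 32 members the GCB response differed from the ABC response at an adjusted p under 0.05, 4 with a higher and 5 with a lower response in GCB, against 12% of all genes (6.62% higher and 5.37% lower). TFEB and GM2A differed most, by -1.04 ± 0.10 (adjusted p = 3.34e-06) and -1.002 ± 0.09 (adjusted p = 2.64e-06). CTSZ differed by -0.75 ± 0.12 (adjusted p = 0.000594), ULK1 by 0.71 ± 0.13 (adjusted p = 0.00123) and TFE3 by 0.34 ± 0.08 (adjusted p = 0.0118). These 5 differences kept their call without any single pair.

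The other 4 differences were less firm. CTSS differed by -0.47 ± 0.13 (adjusted p = 0.0241) and lost the call without OCI-Ly10 18 or 24 h (0.0534 to 0.0562). MCOLN1 differed by 0.40 ± 0.11 (adjusted p = 0.0256), which was lost without K422 18 h, OCI-Ly10 12 h or TMD8 18 h (0.0505 to 0.0588). CTSB differed by -0.57 ± 0.17 (adjusted p = 0.029), lost without K422 6, 12 or 18 h or TMD8 18 h (0.0552 to 0.064). GLA differed by 0.51 ± 0.15 (adjusted p = 0.0313), lost without HT 12 h or OCI-Ly10 12, 18 or 24 h (0.0549 to 0.0746). Among the 31 members tested in both subtypes, TPP1, GAA, PSAP and NPC2 were called higher in both and GLA lower in both, where 8.95% and 8.29% of all genes were. TFE3 was called higher in GCB and lower in ABC (0.99% of all genes), and CTSZ and GM2A lower in GCB and higher in ABC (0.862%).

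**Figure D4:**
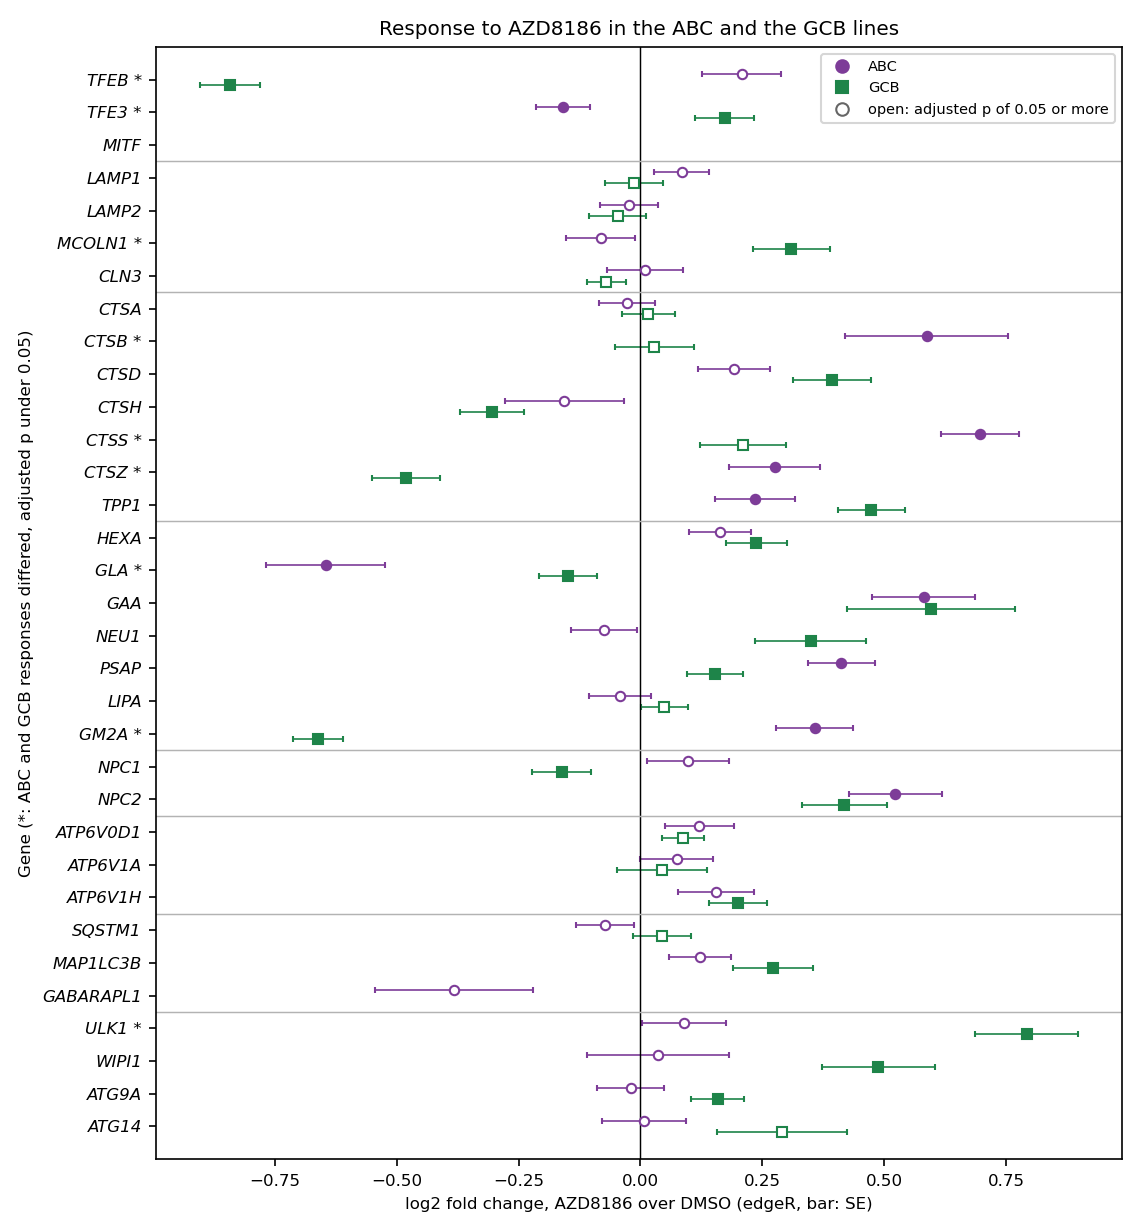
Log2 fold change of each gene under AZD8186 with its SE, for ABC (circles) and GCB (squares). TFEB, CTSZ and GM2A lie on opposite sides of 0 in the subtypes, GAA and NPC2 lie close together, and a star marks the 9 genes whose responses differed.

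The 2 lines of each subtype were also compared. In OCI-Ly10 10 members were called (9 higher, 1 lower, background 29.2%, with 14.5% higher and 14.6% lower), and 5 without its 18 h pair. Without that pair 847 of all 11523 genes were higher and 853 lower, against 1673 and 1683 of 11500 with it. The members called higher with all pairs were CTSB, CTSD, CTSS, TPP1, HEXA, GAA, PSAP, GM2A and NPC2, and the lower one was GLA. In TMD8 4 were called (3 higher, 1 lower, background 3.59%, with 2.36% higher and 1.23% lower). The 4 in TMD8 were CTSB (1.01 ± 0.15), CTSS (0.63 ± 0.09), PSAP (0.49 ± 0.10) and CTSH (-0.55 ± 0.10). All 4 calls were lost without the 18 h or the 24 h pair. Most calls over all genes were lost there too, from 265 higher and 138 lower of 11214 with all pairs. Without 18 h 5 were higher and 7 lower of 11255, and without 24 h 18 were higher and 6 lower of 11176. CTSH was the member whose response differed between these lines, by -0.68 ± 0.11 (adjusted p = 0.0218), where 0.393% of all genes differed and 0.139% had a lower response in TMD8. It was at 48.7, 67.97 and 66.1 CPM under DMSO and 30.5, 46.8 and 48.2 CPM under AZD8186 in TMD8, all lower, and at 181, 195, 171 and 152 CPM under DMSO against 174, 212, 194 and 176 CPM under AZD8186 in OCI-Ly10, which overlapped. The difference was lost without OCI-Ly10 12, 18 or 24 h or TMD8 18 h (adjusted p 0.0828 to 0.109). In CPM, 5 members in OCI-Ly10 and 7 in TMD8 had every AZD8186 library above every DMSO library, and 3 and 2 had every one below. Among all genes those shares were 8.37% and 11.3% above and 9.25% and 10.2% below.

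More members were called in K422 than in HT. In K422 19 of 31 members were called (14 higher, 5 lower, background 46.9%, with 22.9% higher and 24% lower). In HT 13 of 31 were called (7 higher, 6 lower, background 37.5%, with 18.6% higher and 18.9% lower). In CPM the groups lay fully apart for 18 members in K422 (15 above, 3 below) and for 6 in HT (3 above, 3 below), where 19% and 18.7% of all genes in K422 and 14.2% and 10.8% in HT were above and below. TFEB, CTSZ and GM2A were those below in both lines. The response differed between the lines for 10 members, 9 of them higher in K422, against 15.7% of all genes (6.71% higher and 9.04% lower). The median difference was 0.21 over the members and -0.0048 over all genes.

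GAA differed most, with 1.66 ± 0.24 in K422 and 0.24 ± 0.05 in HT, a difference of 1.40 ± 0.19 (adjusted p = 0.00132). In K422 it rested on 14 to 34 expected counts per DMSO library. ATG14 had 7.77, 5.28, 7.18 and 7.08 CPM under DMSO against 9.78, 11.2, 12.4 and 10.7 CPM under AZD8186 in K422, without overlap. In HT it had 7.54, 6.93, 9.01 and 7.65 CPM under DMSO against 7.64, 6.95, 6.75 and 7.26 CPM under AZD8186, with overlap, and the difference was 0.82 ± 0.18 (adjusted p = 0.0105). MAP1LC3B had 45.1 to 51.2 CPM under DMSO and 53.98 to 84.9 CPM under AZD8186 in K422, which lay apart, and 64.5 to 76.8 CPM under DMSO against 70.2 to 76.5 CPM under AZD8186 in HT, which overlapped (difference 0.47 ± 0.10, adjusted p = 0.00984). LAMP1 had 228 to 239.7 CPM under DMSO and 191 to 231 CPM under AZD8186 in HT and 129.6 to 157 CPM under DMSO against 158 to 171 CPM under AZD8186 in K422, with overlap in HT alone. It fell in HT by 0.20 on the log2 scale (SE 0.05, adjusted p = 0.00687) and had 0.15 ± 0.06 in K422 (adjusted p = 0.0565), with a difference of 0.35 ± 0.07 (adjusted p = 0.00879). The HT call was lost without HT 18 h (-0.17, adjusted p = 0.055).

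CTSD, with a difference of 0.45 ± 0.10 (adjusted p = 0.00936), had 68.4 to 91.2 CPM under DMSO against 109 to 146 CPM under AZD8186 in K422 and 96.7 to 111 CPM under DMSO against 107 to 127 CPM under AZD8186 in HT. CTSS differed by 0.50 ± 0.11 (adjusted p = 0.00892). CTSZ fell in both lines and further in K422, by a difference of -0.41 ± 0.09 (adjusted p = 0.0101). The differences of NPC2 (0.44 ± 0.11), NEU1 (0.61 ± 0.15) and WIPI1 (0.60 ± 0.17) had adjusted p of 0.0176, 0.0193 and 0.0367. NEU1 had 21.5 to 29.8 CPM under DMSO and 34.2 to 50.2 CPM under AZD8186 in K422, and WIPI1 3.12 to 4.54 CPM under DMSO against 5.87 to 8.10 CPM under AZD8186. These 3 calls depended on single pairs. NPC2 lost its call without HT 18 h or K422 12 or 18 h (0.053 to 0.0554), and NEU1 without HT 6 or 12 h or K422 18 h (0.0505 to 0.0599). WIPI1 lost it without HT 6, 18 or 24 h or K422 12, 18 or 24 h (0.0646 to 0.108).

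**Figure D5:**
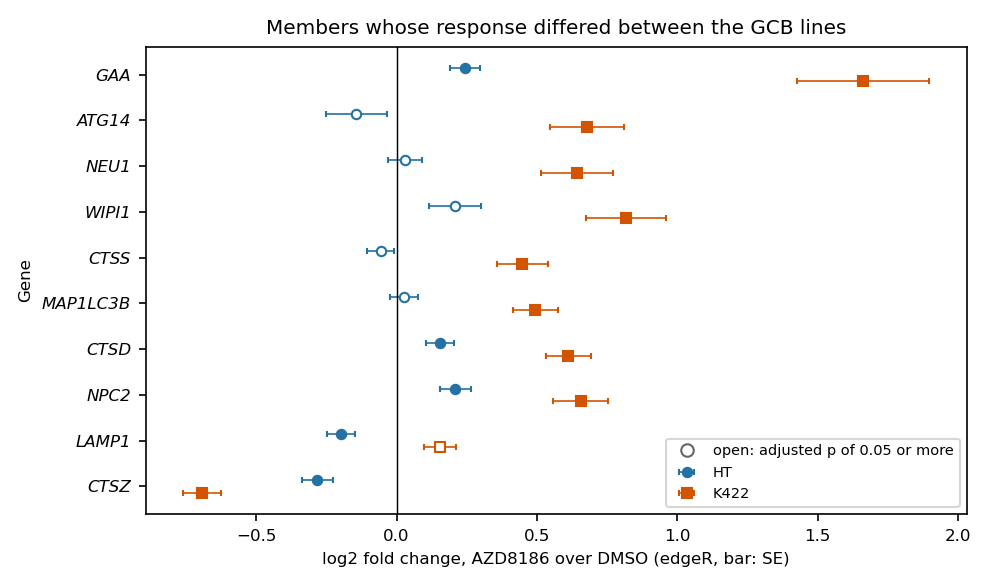
Log2 fold change under AZD8186 with its SE in HT (circles) and K422 (squares) for the 10 genes whose responses differed between these lines. GAA stands farthest out at 1.66 in K422, and CTSZ is the gene that lay lower in both lines and lower still in K422.

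The response of the members was not found to differ between late (18 and 24 h) and early (6 and 12 h) pairs. With edgeR 0 of 32 members in ABC and 0 of 31 in GCB passed an adjusted p under 0.05, as did 0% of all genes. In each subtype 2 members had an unadjusted p under 0.05. Among all genes, 1409 of 12203 in ABC and 779 of 11366 in GCB did. Over culture time in the DMSO libraries alone, 2 members changed, where 7.22% of all genes did (2.9% higher and 4.33% lower). ATP6V1A rose by 0.23 ± 0.04 per 6 h on the log2 scale (adjusted p = 0.00398) and SQSTM1, with the overlap given above, fell by 0.07 (SE 0.02, adjusted p = 0.0427). The SQSTM1 call was lost without any single DMSO library other than HT 12 h, HT 18 h, K422 6 h and TMD8 18 h (adjusted p 0.0534 to 0.164).

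Further genes of the same pathways, from 3 longer lists, were counted in the same fits. Among all genes tested, 15.3% were higher and 13.8% lower in ABC, and 25.9% higher and 23.5% lower in GCB. Of 66 other lysosomal genes, 13 of 59 tested were higher (22.0%) and 7 lower (11.9%) in ABC. In GCB 16 of 61 were higher (26.2%) and 9 lower (14.8%), and the medians were 0.07 in both subtypes. The share of them called in GCB, 41.0%, was below the 49.4% of all genes. Of 47 other autophagy genes, 9 of 45 were higher (20%) and 1 lower (2.22%) in ABC. In GCB 23 of 46 were higher (50%) and 9 lower (19.6%). The medians of these genes were 0.10 in ABC and 0.21 in GCB. Of 14 genes of the Rag and folliculin machinery, which recruits mTORC1 and TFEB to the lysosome, 1 of 14 was higher and 4 lower in ABC, and 4 of 11 higher and 1 lower in GCB.

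NBR1, an autophagy receptor related to SQSTM1, was higher in both subtypes (0.58 ± 0.07 in ABC, adjusted p = 8.06e-05, and 0.76 ± 0.08 in GCB, adjusted p = 5.42e-06). The LC3-type protein GABARAP rose by 0.46 ± 0.10 in ABC (adjusted p = 0.00358) and 0.46 ± 0.09 in GCB (adjusted p = 0.000485). ATG2A, which transfers lipids to the forming autophagosome, rose by 0.25 ± 0.06 and 0.48 ± 0.06. PIK3C3, the class III PI3K, rose by 0.37 ± 0.04 in GCB (adjusted p = 1.37e-05) and 0.26 ± 0.07 in ABC (adjusted p = 0.0101).

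ABCB9, a lysosomal peptide transporter, rose by 1.45 ± 0.17 in ABC (adjusted p = 8.61e-05) and had 0.08 ± 0.13 in GCB (adjusted p = 0.613), a difference of -1.36 ± 0.24 (adjusted p = 0.0012). ASAH1, the acid ceramidase, rose by 0.47 ± 0.07 in ABC (adjusted p = 0.000361) and had -0.02 ± 0.05 in GCB (adjusted p = 0.69). The protease CTSO rose by 0.71 ± 0.12 in ABC and 1.86 ± 0.35 in GCB. In GCB the membrane protein TMEM192 fell by 0.51 (adjusted p = 2.07e-06), the protease CTSC by 0.52 (adjusted p = 3.33e-06) and the sorting receptor M6PR by 0.34 (adjusted p = 1.29e-05). TFEC, a relative of TFEB, fell by 0.48 in ABC (adjusted p = 0.0078), as did the Rag GTPase RRAGC by 0.25 (adjusted p = 0.0164) and the Ragulator subunit LAMTOR3 by 0.18 (adjusted p = 0.0322). In GCB RRAGA rose by 0.21 ± 0.04 (adjusted p = 0.00107) and FNIP1, a partner of folliculin, by 0.42 ± 0.09 (adjusted p = 0.00202), while LAMTOR4 fell by 0.20 (adjusted p = 0.00306).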

How the data were processed

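RNA was sequenced from 30 libraries, and conditions were taken from the sample labels. The dose, the aligner HISAT2 and the quantifier RSEM come from the study's methods, without versions, and the processing notes name GRCh38.p12. The authors deposited expected counts, which RSEM estimates per gene and which were not normalized. They also deposited TPM, scaled by effective length and library total, which served here as an alternative. The deposited FPKM were not used. Expected counts were rounded, filtered with filterByExpr, scaled by TMM factors and fitted in edgeR 4.0.16 under R 4.3.3, with its quasi-likelihood F test. Terms were line, time point and treatment per subtype, time point and treatment per line, and the pair as a block for interactions. Calls used Benjamini-Hochberg adjusted p under 0.05 over all genes tested. Standard errors were taken as the absolute log2 fold change over the root of F. CPM were scaled by TMM factors over all 30 libraries. Log2 ratios per pair used such CPM with a prior count of 2, and exact permutation of their signs tested single members.

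In 14 of 15 pairs the AZD8186 library's deviations from its line's mean correlated best with its own DMSO library (r -0.016 to 0.34), and r was over 0.1 in every ABC pair and in 6 of 8 GCB pairs. The pairs come from the labels' line and time point. The members and lists were chosen with earlier results of these data known. The members with values in full are the factors, those called alike in both subtypes, those with a called difference, and the smallest p per role group and subtype, with the 3 smallest p per longer list. Alternatives were DESeq2 size factors, DESeq2 1.42.0, no filter, at least 5 CPM in 7 libraries, log2(TPM + 1) with limma 3.58.1 for genes with a median of at least 1 TPM, also without ribosomal protein genes, the pair as a block, treatment alone, a threshold of 0.01 and leaving out each pair. The code was tested on simulated counts. Gene positions are GENCODE 29 on GRCh38 and promoters RefSeq's on GRCh38.p14.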

Additional observations from a re-analysis of the deposited data

Results flagged for a closer look

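In 4 of 63 groups of 7 or 8 log2 ratios (1 per pair) the highest or lowest pair stood apart from the others by Dixon's rule, where chance gives about 1 in 20 groups. In ABC this was the TMD8 6 h pair for CTSA (0.25), CTSZ (0.87) and ATP6V0D1 (0.39), and in GCB the HT 24 h pair for LIPA (-0.23). The AZD8186 library of the TMD8 6 h pair held the largest share of ribosomal RNA (4.35%), and its part in these values was not tested. Without this pair the ABC log2 fold changes were -0.08 for CTSA, 0.18 for CTSZ and 0.08 for ATP6V0D1.

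The response differed between the subtypes, as GCB minus ABC on the log2 scale, for TFEB (-1.04), GM2A (-1.002), CTSZ (-0.75), ULK1 (0.71), CTSB (-0.57), GLA (0.51), CTSS (-0.47), MCOLN1 (0.40) and TFE3 (0.34). Within ABC, TMD8 minus OCI-Ly10 differed for CTSH (-0.68). Within GCB, K422 minus HT differed for GAA (1.40), ATG14 (0.82), NEU1 (0.61), WIPI1 (0.60), CTSS (0.50), MAP1LC3B (0.47), CTSD (0.45), NPC2 (0.44), CTSZ (-0.41) and LAMP1 (0.35). Each came from the interaction test with edgeR at an adjusted p under 0.05. A difference between subtypes is one between 2 lines and 2 lines, so that subtype and line cannot be told apart.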

How the results depend on the processing

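No call of a member reversed its direction under any alternative run. For ABC, with 8 members higher and 2 lower, the alternatives that moved a count by over 1.5 times were no filter on low counts (1 lower), log2(TPM + 1) (4 higher, 11 lower), a threshold of 0.01 (5 higher, 1 lower) and treatment as the only term (1 higher, 0 lower). Over all genes the ABC fit called 1750 higher and 1577 lower. No filter gave 1586 and 1604, a threshold of 0.01 gave 911 and 759, and treatment alone gave 97 and 75. Of the ABC calls over all genes, 88.5% were lower on log2(TPM + 1) against 47.4%, and 60.3% without ribosomal protein genes. In GCB, 61.8% were lower against 47.6%. For GCB, with 14 members higher and 6 lower, a threshold of 0.01 gave 8 higher, and treatment as the only term gave 3 higher and 1 lower. Over all genes the GCB fit called 2840 higher and 2576 lower, a threshold of 0.01 gave 1912 and 1846, and treatment alone 622 and 770. DESeq2 called 8 members higher and 2 lower in ABC and 15 higher and 5 lower in GCB.

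Leaving out 1 pair gave 6 to 11 members higher and 1 to 3 lower in ABC, and 10 to 15 higher and 4 to 6 lower in GCB. Over all genes it gave 1124 to 1965 higher and 970 to 1893 lower in ABC. In GCB it gave 2318 to 2774 and 2122 to 2571. Member calls were 5 to 14 in OCI-Ly10 (5 without 18 h) and 0 to 7 in TMD8 (7 without 6 h, 0 without 18 or 24 h). All genes in TMD8 gave 1373 higher and 1097 lower without 6 h, 5 and 7 without 18 h, and 18 and 6 without 24 h. For TMD8 minus OCI-Ly10 there were 0 to 3 member calls, and 3 with no filter, where all genes gave 89 higher and 37 lower. The 2 members changed with culture time became 1 with DESeq2 size factors or no filter, and ranged from 1 to 3 without single libraries. Without single libraries, all genes gave 142 to 479 higher and 184 to 671 lower. The cause of these shifts was not tested.

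With the pair as a block, 10 members were higher and 2 lower in ABC and 14 higher and 4 lower in GCB. Over all genes it gave 1861 higher and 1733 lower in ABC and 2747 and 2484 in GCB. The block changed the calls of TFEB and HEXA in ABC and of GLA and NPC1 in GCB, and of no other member. Totals of 15820230 or more counts limit the lowest members, MITF, GABARAPL1 and GAA in K422.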
